A study of Mus musculus with 12 samples.

Results

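Gene expression in hematopoietic stem cells (HSCs) was set against that in macrophages of the same organ, the mouse fetal liver at E14.5, in embryos that lacked Vav-Cre. The comparison took 6 of the 12 bulk RNA sequencing libraries of the study, 3 from sorted HSCs (HSC replicates 1 to 3) and 3 from sorted macrophages (macrophage replicates 1 to 3), chosen by their labels and not by any measured value. All 6 carried floxed Jag1 (Jag1 f/f) without the Vav-Cre transgene, so that Jag1, the gene of the Notch ligand Jagged1, was not targeted in them. Vav-Cre expresses the recombinase from a promoter active in blood cells. The labels give the genotype of the HSC libraries as WT and that of the macrophage libraries as Jag1ff/VavCre-. HSCs were sorted as DAPI-CD45+Lin-cKit+Sca1+CD48-CD150+ cells, 2000 per library, and macrophages as CD169+ cells, 1000 to 3000 per library. The strain is given as C57BL/6 for the HSCs. The labels do not tie the 3 libraries of a group to different embryos, so p-values measure only the spread between these libraries, which may be technical in part. Reads of the Y-linked genes Ddx3y (given below), Eif2s3y and Kdm5d were found in HSC replicate 2 and macrophage replicate 1 and not in the others. Uty, also Y-linked, had 3350 and 1091 reads in the same libraries, 3 in macrophage replicate 3 and 0 elsewhere. The libraries of a group therefore did not all come from the same embryo, but which of them share one is not known.

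In mid-gestation blood is formed mainly in the fetal liver. HSCs settle there, divide and expand before they move to the bone marrow, and transcription factors such as Hlf and Mecom, the receptor for stem cell factor and surface proteins such as Sca1 mark them. Macrophages of the fetal liver sit at the centre of erythroblastic islands, where they take up the nuclei that maturing red cells expel, recycle iron and clear dying cells. Signalling through the receptor Csf1r maintains them, and the gate antigen CD169 is the product of Siglec1.

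The libraries were prepared with a full-length cDNA kit that does not mark strand, and the reads of each sort were counted into a table of their own. The labels' protocols give 1 batch of library preparation for each sort and do not say that the sorts shared one. Cell type, preparation and counting therefore cannot be told apart as the source of a difference. HSC libraries held 58235222 to 77463770 counted reads and macrophage libraries 17230019 to 24658205. Mitochondrial ribosomal RNA took 7.02% to 12.7% of the macrophage reads and was not counted in the HSC table. It was left out, and the comparison was confined to the 32210 Ensembl genes listed in both tables. Over the genes tested, Spearman correlations between libraries were 0.94 to 0.96 among HSC libraries, 0.81 to 0.90 among macrophage libraries and 0.66 to 0.77 across the sorts. These are correlations over genes, which are not independent replicates.

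Macrophage replicate 1 stood apart from macrophage replicates 2 and 3. The 15 macrophage markers (Adgre1, Siglec1, Csf1r, complement and others) took 0.0841% of its reads, against 0.519% and 0.433% in the other two and 0.146% to 0.164% in the HSC libraries. Its 7 hepatoblast markers took 0.316% of reads against 0.0289% and 0.0302%, with Alb high and Afp low in this library, its 6 stellate cell markers 0.153% against 0.0144% and 0.0234%, and its 10 sinusoidal endothelial markers 1.88% against 0.979% and 0.987%. Counts for the main gene groups are therefore also given without this library. The Y-linked gene Ddx3y had 4110 reads in HSC replicate 2, 925 in macrophage replicate 1 and 0 in each of the other 4 libraries. In bulk samples, fewer cells of a type and less RNA per cell cannot be told apart.

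The label of each sort was checked against its markers. HSC markers (13 genes) took 0.0920% to 0.238% of reads in HSC libraries and 0.0716% to 0.126% in macrophage libraries, and the ranges overlapped. Macrophage markers were present in the HSC libraries at a higher share than in macrophage replicate 1. In each of the 6 libraries the sinusoidal endothelial markers took more reads than the markers of either sorted cell type, at 0.584% to 1.24% of reads in HSC libraries. Their defining genes were abundant in both sorts, and their part in the differences below was not tested. The share of neutrophil markers (6 genes) was 0.0874% to 0.123% in HSC libraries and 0.000695% to 0.00840% in macrophage libraries, without overlap. That of erythroid markers (6 genes) was 0.0565% to 0.112% and 0.00400% to 0.0184%, also without overlap.

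**Figure D1:**
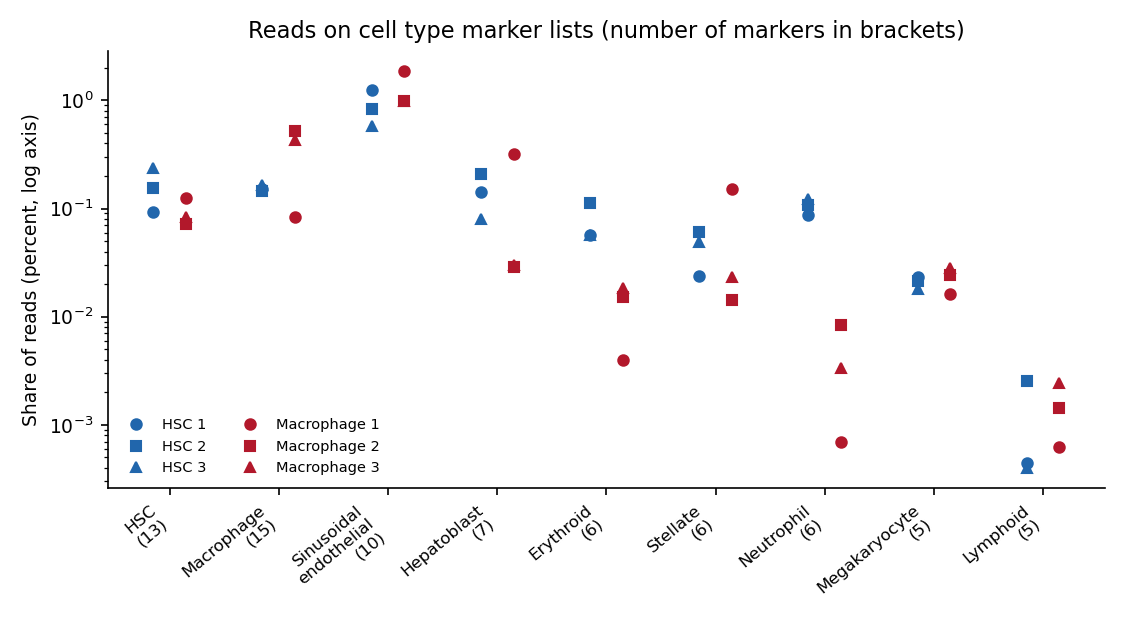
Share of counted reads (percent, log axis) on each marker list in the 3 HSC libraries (blue) and 3 macrophage libraries (red) without Cre, 1 point per library. Macrophage replicate 1 (red circle) had 0.0841% of reads on macrophage markers, below the HSC libraries, and 0.316% on hepatoblast markers, and the neutrophil and erythroid lists did not overlap between the sorts.

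Of the 32210 shared genes, 16771 passed a filter on low counts and were tested. A gene was called where its Benjamini-Hochberg adjusted p was under 0.05. By this rule 2397 genes (14.3%) were higher in HSC libraries and 3556 (21.2%) were higher in macrophage libraries. HSC-higher genes made up 40.3% of all calls, and 51.0% when values were replaced by ranks within each library, which gave 3053 and 2931 calls. A difference was called large when it also reached a log2 fold change of 2 in size and the percentile ranks of the gene within its libraries did not overlap between the sorts. Large differences numbered 1050 genes (6.26%) higher in HSC libraries and 2259 (13.5%) higher in macrophage libraries. Called or not, 4279 genes (25.5%) had ranks without overlap on the HSC side and 4284 (25.5%) on the macrophage side. A lack of overlap was thus common, and these shares stand beside every gene described below as not overlapping. Without HSC replicate 1 the HSC-higher count was 1319 and the large HSC-higher count 679, without HSC replicate 2 the HSC-higher count was 1480, and without macrophage replicate 2 the macrophage-higher count was 2368. Without macrophage replicate 1 the counts were 2792 (16.6%) and 3568 (21.3%). Among the large macrophage-higher genes, 1009 had 0 reads in all 3 HSC libraries. Of all genes tested, 1344 had 0 reads in all 3 HSC libraries and 99 in all 3 macrophage libraries. These passed the filter through the other sort alone, which fixed their direction, and none was left uncalled. The same holds for each gene given below with 0 reads in 1 sort. With reads in all 6 libraries, a setting added after the data were seen, 11506 genes were tested. Of these, 2094 were HSC-higher (46.9% of calls) and 2375 macrophage-higher. Over the 6 libraries, 3 reads corresponded to 0.0377 to 0.0547 CPM in HSC libraries and to 0.153 to 0.209 CPM in macrophage libraries, and the means of these floors, 0.0467 and 0.172 CPM, set the lower bounds given below for genes with 0 reads in 1 sort. They cover counting error only. All log2 fold changes below are HSC minus macrophage, so that a negative value means a higher level in macrophages, and levels are in CPM, reads scaled to a common library total over the shared genes, not divided by length, given for replicates 1, 2 and 3 in that order. SE is the standard error of the fit. Over all genes tested the median log2 fold change was -0.25. With DESeq2 scaling the values shifted by a median of -0.16, with upper-quartile scaling by -0.12 and with equal depth by -0.11.

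The differences followed the length of the genes. Across 10986 protein-coding genes with at least 10 CPM in the higher group, the Spearman correlation of exon length with the log2 fold change was -0.50, a description across genes. In the shortest of 10 equal groups of these genes (0.243 to 1.894 kb) the median log2 fold change was 1.26 and 34.7% of genes were called higher in HSC libraries. In the longest of the 10 groups (10.504 to 123.179 kb) the median was -1.63 and 53.3% were called higher in macrophage libraries. Whether this gradient belongs to the cells or to the preparation or counting of the libraries cannot be told apart. The fit was therefore repeated with the trend of the fold change on exon length, estimated from this same comparison, taken out, which gave 2448 HSC-higher (14.6%) and 2730 macrophage-higher calls (16.3%). Values from that fit are given below as length-corrected wherever the correction ended a call.

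**Figure D2:**
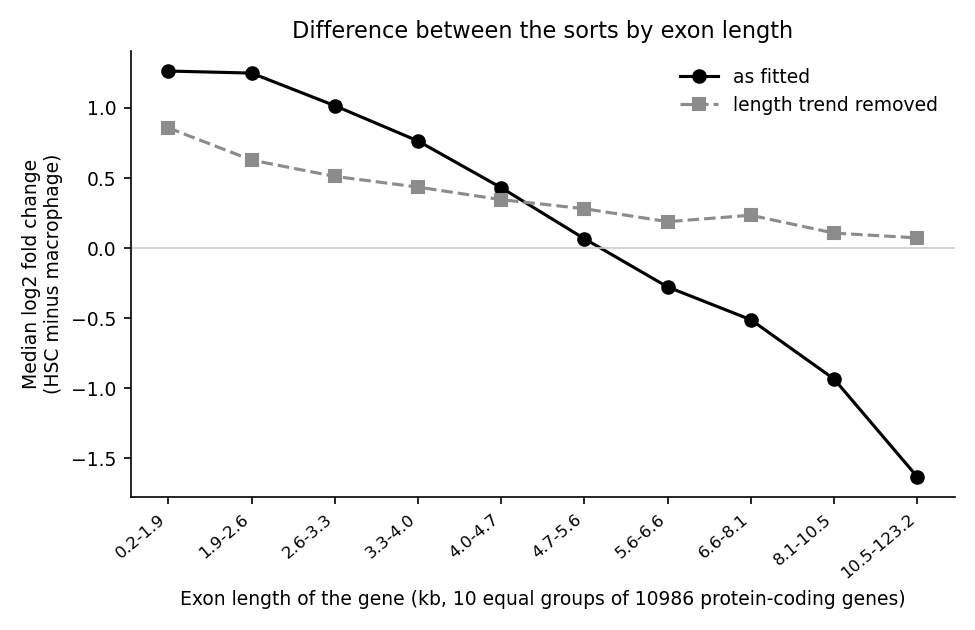
Median log2 fold change (HSC minus macrophage) in 10 equal groups of 10986 protein-coding genes ordered by exon length in kb, as fitted (black) and after the length trend was removed (grey). The fitted medians run from 1.26 in the shortest group to -1.63 in the longest, and the corrected medians from 0.86 to 0.07.

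Siglec1, the gene of the CD169 antigen used to sort the macrophages, had 4.34, 3.10 and 0.507 CPM in HSC libraries against 21.97, 126 and 131 CPM in macrophage libraries. All macrophage libraries were above all HSC libraries, with macrophage replicate 1 the lowest of its group (log2 fold change -5.13 ± 0.97 SE, adjusted p = 0.00597). Of the 5 genes behind the HSC gate, Ly6a, which encodes Sca1, was called higher in HSC libraries. After length correction 2 of the 5 were called so, Ptprc among them and Ly6a not. Ly6a had 152, 156 and 125 CPM in HSC libraries against 0.349, 23.1 and 20.9 CPM in macrophage libraries, without overlap (log2 fold change 3.28 ± 1.03 SE, adjusted p = 0.0358). The Ly6a call was lost without HSC replicate 1, HSC replicate 2, HSC replicate 3, macrophage replicate 2 or macrophage replicate 3 (adjusted p = 0.0896, 0.0755, 0.0643, 0.0687 and 0.0833), and after length correction (2.91, adjusted p = 0.0588). Kit, the receptor of stem cell factor, had 74.9, 111 and 179 CPM in HSC libraries against 105, 25.1 and 22.6 CPM in macrophage libraries. Kit overlapped through macrophage replicate 1, and without that library it was called higher in HSC libraries (log2 fold change 2.35, adjusted p = 0.00566). Ptprc, the gene of CD45, had 68.3, 114 and 259 CPM in HSC libraries against 29.02, 218 and 155 CPM in macrophage libraries and overlapped fully (log2 fold change 0.13 ± 0.69 SE, adjusted p = 0.904), while its length-corrected value passed the test (2.19, adjusted p = 0.0495). Slamf1, which encodes CD150, had 7.86, 16.5 and 72.6 CPM in HSC libraries against 7.95, 16.03 and 4.64 CPM in macrophage libraries. Only HSC replicate 3 stood above the rest for Slamf1, and the gene was not called (log2 fold change 1.76 ± 0.89 SE, adjusted p = 0.164). Cd48, whose product the HSC gate excludes, had 12.3, 17.03 and 24.7 CPM in HSC libraries against 0, 15.7 and 23.7 CPM in macrophage libraries and was not called (log2 fold change 0.46 ± 1.39 SE, adjusted p = 0.833).

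Hlf, a transcription factor of long-term stem cells, had 60.5, 81.04 and 191 CPM in HSC libraries against 28.9, 2.90 and 6.60 CPM in macrophage libraries. The HSC libraries were all above the macrophage libraries, of which replicate 1 was the highest (log2 fold change 3.12 ± 0.85 SE, adjusted p = 0.0217). The Hlf call was lost without HSC replicate 3, macrophage replicate 2 or macrophage replicate 3 (adjusted p = 0.0733, 0.0503 and 0.0794). Mecom, another stem cell transcription factor, had 62.9, 90.8 and 157 CPM in HSC libraries against 83.01, 71.2 and 68.8 CPM in macrophage libraries. The Mecom values overlapped and it was not called (log2 fold change 0.48 ± 0.36 SE, adjusted p = 0.355), but length-corrected it was higher in HSC libraries (1.999, adjusted p = 0.00766). Adgre1, which encodes the macrophage antigen F4/80, had 124, 96.9 and 91.1 CPM in HSC libraries against 26.9, 439 and 419 CPM in macrophage libraries. It was high in macrophage replicates 2 and 3 and lower in replicate 1 than in any HSC library, and it was not called (log2 fold change -1.51 ± 0.78 SE, adjusted p = 0.173) until replicate 1 was left out (-2.05, adjusted p = 0.000619). Stab2, a scavenger receptor of sinusoidal endothelium, had 1241, 1065 and 553 CPM in HSC libraries against 6167, 2675 and 2907 CPM in macrophage libraries. Both sorts held this transcript in abundance, and macrophage libraries were higher without overlap (log2 fold change -2.04 ± 0.42 SE, adjusted p = 0.00819). The length-corrected Stab2 value did not pass (-1.02, adjusted p = 0.0911).

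**Figure D3:**
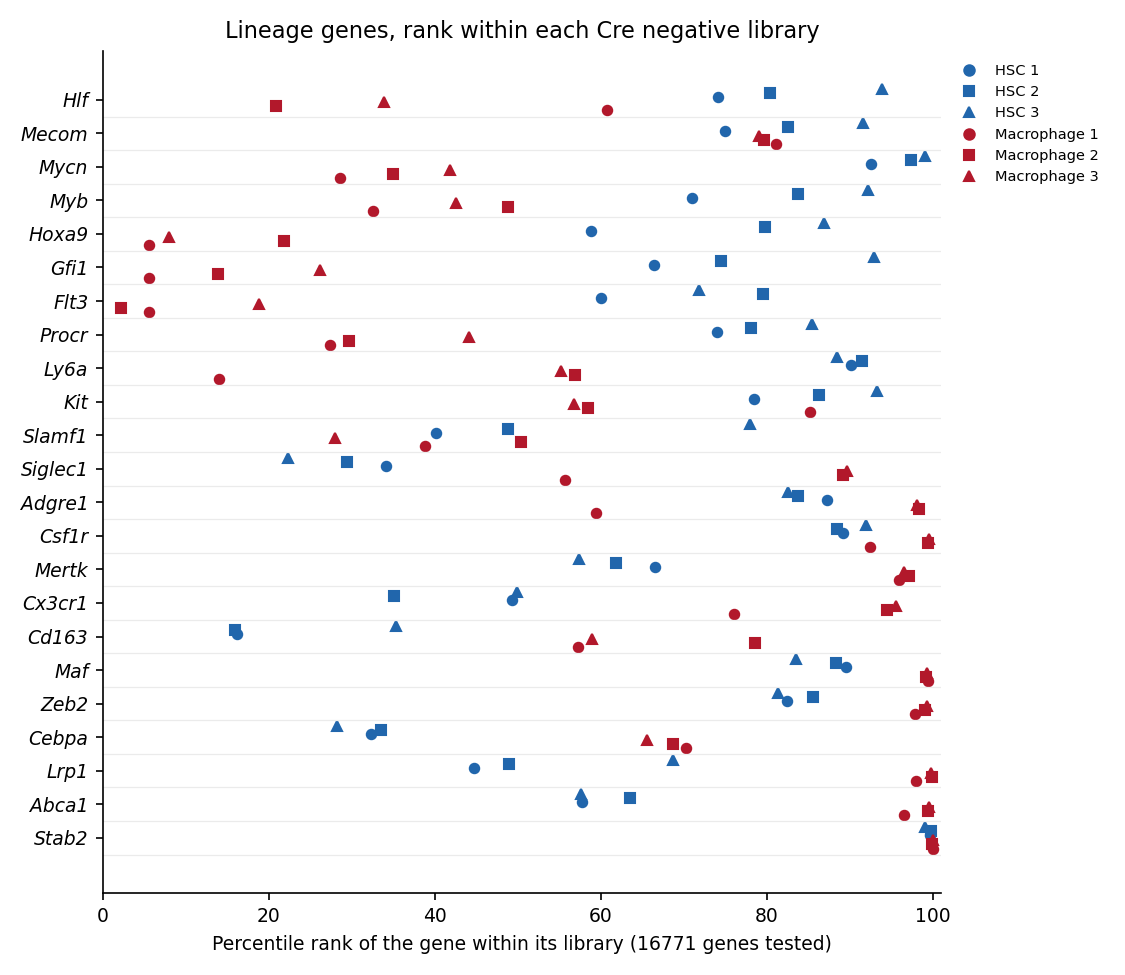
Percentile rank of 23 lineage genes within each Cre negative library among the 16771 genes tested, HSC libraries in blue and macrophage libraries in red, with 1 symbol per replicate. Hlf, Mycn, Myb, Hoxa9, Gfi1, Flt3 and Procr rank higher in each HSC library than in each macrophage library, Mertk, Cx3cr1, Cebpa, Lrp1 and Abca1 rank lower, and Adgre1 and Kit overlap through macrophage replicate 1 (red circle).

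Many genes that regulate HSCs were higher in HSC libraries. Of 38 regulators, all tested, 15 (39.5%) were higher in HSC libraries and 6 (15.8%) in macrophage libraries, beside 14.3% and 21.2% of all genes, with a median log2 fold change of 0.75 beside -0.25. These shares of all genes stand beside the counts of every list below. In each fit that left out a single library, 9 of the 15 and 3 of the 6 were called again. Over all genes, 1149 of the 2397 HSC-higher and 2003 of the 3556 macrophage-higher calls were kept in each such fit. These counts stand beside those of every list below. Without macrophage replicate 1 the counts of regulators were 16 and 4. Hoxa9, a homeobox gene that promotes stem cell renewal, had 28.6, 78.1 and 114 CPM in HSC libraries against 0, 3.10 and 0.464 CPM in macrophage libraries, without overlap (log2 fold change 5.92 ± 1.30 SE, adjusted p = 0.0110). Its neighbour Hoxa10 had 10.1, 20.9 and 69.1 CPM in HSC libraries against 1.67, 0.509 and 0 CPM in macrophage libraries (log2 fold change 5.54 ± 1.46 SE, adjusted p = 0.0197). HSC replicate 3 was the highest library for Hoxa10, and the call was lost without HSC replicate 3 or macrophage replicate 2 (adjusted p = 0.102 and 0.0632). Mycn, which drives the growth of fetal progenitors, had 186, 325 and 554 CPM in HSC libraries against 3.77, 6.77 and 10.2 CPM in macrophage libraries. Its mean in HSC libraries was 51.4 times that in macrophage libraries (log2 fold change 5.68 ± 0.56 SE, adjusted p = 0.000399). Gfi1, a repressor that restrains HSC division, had 41.3, 61.01 and 173 CPM in HSC libraries against 0, 1.68 and 4.13 CPM in macrophage libraries, with no read in macrophage replicate 1 (log2 fold change 5.55 ± 1.24 SE, adjusted p = 0.0118). Myb, required for definitive hematopoiesis, had 52.2, 96.9 and 165 CPM in HSC libraries against 5.16, 14.6 and 10.6 CPM in macrophage libraries, also without overlap (log2 fold change 3.37 ± 0.57 SE, adjusted p = 0.00359). Lower in size were the differences of Sox4 (log2 fold change 3.08, adjusted p = 0.00340), of Mllt3, which maintains HSCs (2.696, adjusted p = 0.00317), of Lmo2, a partner of Tal1 (1.95, adjusted p = 0.00288), and of Hhex (1.65, adjusted p = 0.00212).

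Among the 6 regulators of the opposite direction were Hoxb4, Kmt2a, Tal1, Zfp521 and Erg. Tal1, a regulator of blood and vascular progenitors and the partner of Lmo2, had 16.3, 10.3 and 8.39 CPM in HSC libraries against 50.99, 39.7 and 75.98 CPM in macrophage libraries, without overlap (log2 fold change -2.25 ± 0.47 SE, adjusted p = 0.00894). Kmt2a, a histone methyltransferase gene, had 39.8, 55.5 and 54.4 CPM in HSC libraries against 423, 237 and 214 CPM in macrophage libraries (log2 fold change -2.55 ± 0.33 SE, adjusted p = 0.00118). Its exons sum to 16670 bases, and the length-corrected value did not pass (-0.62, adjusted p = 0.187). Hoxb4 had 1.64, 0.842 and 0.936 CPM in HSC libraries against 21.8, 4.43 and 16.6 CPM in macrophage libraries (log2 fold change -3.64 ± 1.11 SE, adjusted p = 0.0317), and its call was lost without HSC replicate 1, HSC replicate 2, HSC replicate 3, macrophage replicate 1 or macrophage replicate 3 (adjusted p = 0.0581, 0.0874, 0.0687, 0.0905 and 0.0838). Zfp521, a zinc finger gene of HSCs, had 19.98, 10.8 and 20.9 CPM in HSC libraries against 133, 45.2 and 55.4 CPM in macrophage libraries (log2 fold change -2.17 ± 0.52 SE, adjusted p = 0.0151) and lost its call after length correction (-1.48, adjusted p = 0.0566). Erg, an ETS factor, had a log2 fold change of -1.10, adjusted p = 0.0341 and lost its call without HSC replicate 1, HSC replicate 2, HSC replicate 3, macrophage replicate 1 or macrophage replicate 3 (adjusted p = 0.0836, 0.0781, 0.0814, 0.0606 and 0.0827). Fli1, which is related to Erg, had 220.1, 195 and 251 CPM in HSC libraries against 248, 219 and 255 CPM in macrophage libraries and was not called (log2 fold change -0.12 ± 0.22 SE, adjusted p = 0.721).

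Surface genes by which HSCs are recognised or sorted were taken next. Of 26, all tested, 13 (50%) were higher in HSC libraries, each as a large difference beside 6.26% of all genes, and 5 (19.2%) in macrophage libraries, with a median of 2.05. In each fit without 1 library, 11 of the 13 and 3 of the 5 were called again, and 14 and 5 genes were called without macrophage replicate 1. Ifitm1, an interferon-induced membrane protein gene, had the largest fold change of the list, with 111, 167 and 334 CPM in HSC libraries against 0.419, 1.22 and 1.86 CPM in macrophage libraries (log2 fold change 7.42 ± 0.69 SE, adjusted p = 0.000337). Flt3, a receptor of multipotent progenitors, had 30.3, 77.3 and 54.5 CPM in HSC libraries against 0, 0.0509 and 2.37 CPM in macrophage libraries (log2 fold change 6.03 ± 1.46 SE, adjusted p = 0.0157). Cd27, a receptor of the TNF family, had 25.1, 67.9 and 118 CPM in HSC libraries against 0.140, 4.07 and 0.258 CPM in macrophage libraries (log2 fold change 5.54 ± 1.27 SE, adjusted p = 0.0129). Both were close to 0 in macrophage replicate 1. Procr, the endothelial protein C receptor, had a log2 fold change of 3.57, adjusted p = 0.00271, the stem cell antigen Cd34 one of 2.07, adjusted p = 0.00104, and Cd47, whose product restrains phagocytosis, one of 2.34, adjusted p = 0.000335.

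The 5 surface genes higher in macrophage libraries were Fgd5, Thy1, Cd93, Vwf and Itga6. Fgd5, which HSCs share with endothelium, had 93.8, 79.7 and 86.9 CPM in HSC libraries against 815, 436 and 540.2 CPM in macrophage libraries (log2 fold change -2.78 ± 0.29 SE, adjusted p = 0.000462). Thy1, an antigen of lymphoid and stromal cells that HSCs carry at a low level, had 1.35, 3.57 and 3.62 CPM in HSC libraries against 48.7, 24.5 and 21.05 CPM in macrophage libraries (log2 fold change -3.46 ± 0.72 SE, adjusted p = 0.00861). Cd93 had a log2 fold change of -1.80, adjusted p = 0.00953. Vwf (-1.16, adjusted p = 0.0190) and Itga6 (-1.12, adjusted p = 0.0163) lost their calls after length correction (0.72, adjusted p = 0.106 and -0.06, adjusted p = 0.889), Vwf also without HSC replicate 1, HSC replicate 2 or macrophage replicate 3 (adjusted p = 0.0531, 0.0560 and 0.0606), and Itga6 without HSC replicate 2 or HSC replicate 3 (adjusted p = 0.0603 and 0.0515).

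Transcription factors of macrophages were divided. Of 22, all tested, 8 (36.4%) were higher in macrophage libraries and 3 (13.6%) in HSC libraries, with a median of -0.47, and in each fit without 1 library 4 of the 8 and 1 of the 3 were called again, with counts of 8 and 2 without macrophage replicate 1. Cebpa, a factor of myeloid cells and also of hepatocytes, had 3.54, 4.76 and 2.24 CPM in HSC libraries against 46.9, 41.8 and 35.7 CPM in macrophage libraries (log2 fold change -3.56 ± 0.55 SE, adjusted p = 0.00231). Maf, a factor of resident macrophages, had 144, 126 and 95.3 CPM in HSC libraries against 792, 732 and 817 CPM in macrophage libraries. The 3 macrophage values of Maf lay close together and far from the HSC values (log2 fold change -2.68 ± 0.24 SE, adjusted p = 0.000272). Rxra, a nuclear receptor, had 44.7, 25.3 and 34.1 CPM in HSC libraries against 176, 173 and 175 CPM in macrophage libraries (log2 fold change -2.33 ± 0.30 SE, adjusted p = 0.000970). Zeb2, which maintains macrophage identity, had 93.3, 107 and 85.6 CPM in HSC libraries against 419.9, 632 and 783 CPM in macrophage libraries (log2 fold change -2.68 ± 0.28 SE, adjusted p = 0.000512), but did not pass after length correction (-0.52, adjusted p = 0.193). Klf4 had 2.35, 0.251 and 0.952 CPM in HSC libraries against 10.3, 13.7 and 21.1 CPM in macrophage libraries (log2 fold change -3.67 ± 1.17 SE, adjusted p = 0.0375), and its call was lost without HSC replicate 2, HSC replicate 3, macrophage replicate 2 or macrophage replicate 3 (adjusted p = 0.0812, 0.0847, 0.0832 and 0.121). Bhlhe41 had 0.0912, 0 and 0 CPM in HSC libraries against 16.9, 3.82 and 1.86 CPM in macrophage libraries (log2 fold change -7.86 ± 2.42 SE, adjusted p = 0.0336). That call was lost without HSC replicate 2, HSC replicate 3, macrophage replicate 1, macrophage replicate 2 or macrophage replicate 3 (adjusted p = 0.0730, 0.0648, 0.0818, 0.0627 and 0.0509). Id3, which takes part in Kupffer cell development and is also made by endothelium, went the other way with 1063, 1023 and 749.7 CPM in HSC libraries against 213, 62.7 and 129.5 CPM in macrophage libraries (log2 fold change 2.81 ± 0.43 SE, adjusted p = 0.00233). Spi1, which encodes PU.1, had 108, 113 and 229 CPM in HSC libraries against 7.74, 134 and 116 CPM in macrophage libraries. It overlapped and was not called (log2 fold change 0.80 ± 0.80 SE, adjusted p = 0.490), as was Irf8 with 219, 171 and 94.8 CPM in HSC libraries against 68.01, 115 and 117 CPM in macrophage libraries (log2 fold change 0.69 ± 0.36 SE, adjusted p = 0.182).

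The count of macrophage surface and identity genes depended on macrophage replicate 1. Of 35, all tested, 11 (31.4%) were higher in macrophage libraries, with a median of -1.35, and without replicate 1 the count was 23. None was higher in HSC libraries by edgeR, by DESeq2 or at an unadjusted p under 0.05, but after length correction 1 was, with 9 higher in macrophage libraries. In each fit without 1 library, 6 of the 11 were called again. Mertk, a receptor for dying cells, had 41.8, 33.9 and 27.04 CPM in HSC libraries against 274, 310.1 and 273 CPM in macrophage libraries. The macrophage libraries agreed closely and did not overlap with the HSC libraries (log2 fold change -3.06 ± 0.27 SE, adjusted p = 0.000255). Cx3cr1, the fractalkine receptor, had 16.03, 5.62 and 17.6 CPM in HSC libraries against 62.8, 207 and 234 CPM in macrophage libraries (log2 fold change -3.68 ± 0.62 SE, adjusted p = 0.00361). Csf1r, the receptor that maintains macrophages, had 141, 127 and 162 CPM in HSC libraries against 183, 933 and 1003 CPM in macrophage libraries (log2 fold change -2.30 ± 0.55 SE, adjusted p = 0.0149). For both, macrophage replicate 1 was the lowest of its group and still above the HSC libraries. Mrc1, the mannose receptor of macrophages and sinusoidal endothelium, had 497, 343 and 243 CPM in HSC libraries against 1549, 1279 and 1514 CPM in macrophage libraries, with macrophage replicate 1 the highest (log2 fold change -2.002 ± 0.29 SE, adjusted p = 0.00186). Cd163, the scavenger receptor for hemoglobin, had 0.328, 0.0628 and 5.66 CPM in HSC libraries against 23.9, 67.6 and 25.5 CPM in macrophage libraries (log2 fold change -4.27 ± 1.46 SE, adjusted p = 0.0499). Its call lay at the threshold and was lost without HSC replicate 1, HSC replicate 2, macrophage replicate 1, macrophage replicate 2 or macrophage replicate 3 (adjusted p = 0.112, 0.0641, 0.0553, 0.155 and 0.0842), and after length correction (-3.96, adjusted p = 0.0689). Cd5l, a product of island macrophages and Kupffer cells, had 248, 189 and 134 CPM in HSC libraries against 12.3, 868 and 392 CPM in macrophage libraries (log2 fold change -1.16 ± 1.01 SE, adjusted p = 0.421). Lyz2, lysozyme, had 368, 459.6 and 702 CPM in HSC libraries against 85.5, 599 and 467 CPM in macrophage libraries (log2 fold change 0.41 ± 0.59 SE, adjusted p = 0.638). Neither was called, and macrophage replicate 1 was below every HSC library for both.

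For complement and the uptake of dying cells the count depended on the same library. Of 22 genes, all tested, 6 (27.3%) were higher in macrophage and 2 (9.09%) in HSC libraries, with a median of -0.79, and without macrophage replicate 1 the counts were 11 and 2. In each fit without 1 library, 4 of the 6 and 1 of the 2 were called again. Lrp1, a large endocytic receptor, had 11.4, 16.8 and 47.3 CPM in HSC libraries against 434, 1594 and 1455 CPM in macrophage libraries (log2 fold change -5.53 ± 0.73 SE, adjusted p = 0.00121). Abca1, which exports cholesterol, had 26.9, 36.4 and 27.5 CPM in HSC libraries against 312, 916 and 1015 CPM in macrophage libraries (log2 fold change -4.63 ± 0.47 SE, adjusted p = 0.000434). After length correction Lrp1 (-3.52, adjusted p = 0.00752) and Abca1 (-3.37, adjusted p = 0.00169) were called again. Itgav, the alpha chain of the vitronectin receptor, had 5.45, 8.40 and 11.7 CPM in HSC libraries against 84.7, 115 and 192 CPM in macrophage libraries (log2 fold change -3.93 ± 0.47 SE, adjusted p = 0.000785). C3ar1, the receptor for complement C3a, had 2.99, 9.36 and 10.01 CPM in HSC libraries against 23.2, 91.4 and 213 CPM in macrophage libraries (log2 fold change -3.87 ± 0.83 SE, adjusted p = 0.0101). None of these 4 genes overlapped between the sorts, beside 25.5% of all genes without rank overlap on the macrophage side. C1qb, of the complement C1q complex, had 277, 301 and 347 CPM in HSC libraries against 38.4, 808 and 625 CPM in macrophage libraries and was not called (log2 fold change -0.67 ± 0.79 SE, adjusted p = 0.561) unless macrophage replicate 1 was left out (-1.22, adjusted p = 0.00376). Mfge8, the bridge between dying cells and integrins, was higher in HSC libraries, with 520.2, 405 and 230.4 CPM in HSC libraries against 77.1, 51.2 and 46.5 CPM in macrophage libraries (log2 fold change 2.72 ± 0.36 SE, adjusted p = 0.00129).

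Genes of the erythroblastic island and of iron handling (23 tested) numbered 3 (13%) higher in macrophage and 2 (8.70%) in HSC libraries, beside 21.2% and 14.3% of all genes. Without macrophage replicate 1 the counts were 8 (34.8%) and 4 (17.4%), beside 21.3% and 16.6%, and 2 of the 3 and both of the others were called again in each fit without 1 library. Hmox1, which breaks down heme, had 454, 422 and 437 CPM in HSC libraries against 205, 1853 and 1336 CPM in macrophage libraries. Macrophage replicate 1 was below the HSC libraries, and Hmox1 was not called (log2 fold change -1.37 ± 0.62 SE, adjusted p = 0.124) unless that library was left out (-1.87, adjusted p = 0.000619). Epor, the erythropoietin receptor, was higher in HSC libraries, with 88.6, 91.004 and 88.6 CPM in HSC libraries against 3.91, 6.92 and 15.1 CPM in macrophage libraries (log2 fold change 3.37 ± 0.53 SE, adjusted p = 0.00275). Ftl1, ferritin light chain, had 5843, 5197 and 5065 CPM in HSC libraries against 149, 175 and 129 CPM in macrophage libraries (log2 fold change 5.15 ± 0.25 SE, adjusted p = 5.32e-05). Ftl1 has many near-identical copies in the genome and its reads may be split by the counting, so its difference is uncertain.

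Of 31 lysosomal genes 29 were tested, 6 (20.7%) were higher in HSC and 2 (6.90%) in macrophage libraries, with a median of 0.40. Without macrophage replicate 1 both counts were 5 and the median 0.05, and 2 of the 6 and both of the others were called again in each fit without 1 library. Ctsd, cathepsin D, had 1559, 1002 and 1149 CPM in HSC libraries against 152, 328 and 387 CPM in macrophage libraries (log2 fold change 2.10 ± 0.37 SE, adjusted p = 0.00420), and Glb1, beta-galactosidase, 147, 159 and 178 CPM in HSC libraries against 18.7, 28.7 and 42.5 CPM in macrophage libraries (log2 fold change 2.43 ± 0.35 SE, adjusted p = 0.00190). Lgmn, a protease of macrophage lysosomes, had 287, 177 and 184 CPM in HSC libraries against 351, 1105 and 1186 CPM in macrophage libraries and the opposite direction (log2 fold change -2.03 ± 0.45 SE, adjusted p = 0.0113). So had Npc1, which moves cholesterol out of lysosomes, with 16.7, 9.96 and 18.8 CPM in HSC libraries against 41.7, 68.02 and 76.4 CPM in macrophage libraries (log2 fold change -2.03 ± 0.44 SE, adjusted p = 0.0102), but its length-corrected value did not pass (-0.65, adjusted p = 0.305). Lipid genes (23 tested) had 5 (21.7%) higher in macrophage and 3 (13%) in HSC libraries, close to the shares over all genes, and 6 and 5 without macrophage replicate 1. Apoe, the apolipoprotein of both hepatic and macrophage origin, had 5646, 4198 and 3664 CPM in HSC libraries against 3664, 5542 and 6499 CPM in macrophage libraries and was not called (log2 fold change -0.22 ± 0.27 SE, adjusted p = 0.587). Apoc2, another apolipoprotein gene, had 28.8, 32.1 and 16.6 CPM in HSC libraries and 0 reads in each macrophage library, at least 149.98-fold higher against a floor of 3 reads per library.

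Antigen presentation genes (17 tested) had 4 members (23.5%) higher in HSC libraries and 1 (5.88%) in macrophage libraries, with a median of 0.87, and 5 and 2 without macrophage replicate 1. The class I gene H2-K1 had 213, 422 and 603 CPM in HSC libraries against 77.01, 94.5 and 137 CPM in macrophage libraries (log2 fold change 2.01 ± 0.40 SE, adjusted p = 0.00765). Tap2, of the transporter that loads class I molecules, had 42.8, 70.7 and 88.9 CPM in HSC libraries against 6.63, 13.02 and 7.43 CPM in macrophage libraries (log2 fold change 2.90 ± 0.48 SE, adjusted p = 0.00336). The class II gene H2-Aa had 0 reads in each HSC library and 1.05, 8.55 and 8.82 CPM in macrophage libraries, at least 132-fold higher, and its call was lost without macrophage replicate 2 (adjusted p = 0.0511). Of 24 cytokine and chemokine genes, 22 were tested and 4 (18.2%) were higher in macrophage libraries, below the 21.2% of all genes, 2 of them in each fit without 1 library. By edgeR 0 were higher in HSC libraries, with 3 at an unadjusted p under 0.05 and 1 by DESeq2. Il6ra, the interleukin 6 receptor, had 4.07, 4.69 and 7.10 CPM in HSC libraries against 19.7, 81.6 and 54.9 CPM in macrophage libraries (log2 fold change -3.30 ± 0.63 SE, adjusted p = 0.00613), and the chemokine gene Ccl6 15.3, 16.7 and 13.9 CPM in HSC libraries against 23.7, 187 and 169 CPM in macrophage libraries (log2 fold change -3.04 ± 0.68 SE, adjusted p = 0.0116). Monocyte and dendritic cell genes (13 of 16 tested) had 4 (30.8%) higher in macrophage libraries and 1 (7.69%), Flt3, in HSC libraries, with 4 and 2 without macrophage replicate 1. F13a1, coagulation factor XIII, had 8.08, 2.98 and 35.6 CPM in HSC libraries against 101, 318 and 504 CPM in macrophage libraries (log2 fold change -4.31 ± 0.96 SE, adjusted p = 0.0117). Fn1, fibronectin, had 32.3, 48.5 and 32.4 CPM in HSC libraries against 445, 297 and 307 CPM in macrophage libraries (log2 fold change -3.21 ± 0.30 SE, adjusted p = 0.000337).

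The sinusoidal endothelial list split by gene. Of 33, all tested, 11 (33.3%) were higher in HSC and 5 (15.2%) in macrophage libraries, with a median of 0.41, and in each fit without 1 library 8 of the 11 and 4 of the 5 were called again, and without macrophage replicate 1 the counts were 15 and 5. Cdh5, VE-cadherin, had 149, 109.9 and 86.95 CPM in HSC libraries against 2004, 1370.3 and 1124 CPM in macrophage libraries (log2 fold change -3.70 ± 0.33 SE, adjusted p = 0.000279). Flt4, a VEGF receptor of sinusoidal and lymphatic vessels, had 206, 122 and 88.1 CPM in HSC libraries against 1517, 556 and 549 CPM in macrophage libraries (log2 fold change -2.65 ± 0.49 SE, adjusted p = 0.00543). Stab1, a scavenger receptor of sinusoids and macrophages, had 409, 430.3 and 278 CPM in HSC libraries against 3067, 1556 and 1948 CPM in macrophage libraries (log2 fold change -2.56 ± 0.32 SE, adjusted p = 0.000951). Macrophage replicate 1 was the highest library for all 3 genes. They were called again after length correction (-3.84, adjusted p = 0.000403 for Cdh5, -1.73, adjusted p = 0.0246 for Flt4 and -1.31, adjusted p = 0.0166 for Stab1). On the other side, Clec4g, a lectin of liver sinusoids, had 303, 214 and 166 CPM in HSC libraries against 39.4, 28.4 and 35.1 CPM in macrophage libraries (log2 fold change 2.73 ± 0.31 SE, adjusted p = 0.000679). Plvap, of the diaphragms of fenestrated vessels, had 2754, 1663 and 1212 CPM in HSC libraries against 661, 462 and 547 CPM in macrophage libraries (log2 fold change 1.75 ± 0.33 SE, adjusted p = 0.00547). Sox18, an endothelial transcription factor, had 532, 247 and 223 CPM in HSC libraries against 98.6, 50.3 and 39.2 CPM in macrophage libraries (log2 fold change 2.41 ± 0.47 SE, adjusted p = 0.00655), and Emcn, endomucin, 195, 152 and 87.8 CPM in HSC libraries against 46.5, 32.97 and 29.04 CPM in macrophage libraries (log2 fold change 2.001 ± 0.37 SE, adjusted p = 0.00563). Exons of the macrophage-higher Cdh5, Flt4, Stab1 and Stab2 sum to 4203 to 10288 bases, and those of the HSC-higher Clec4g, Plvap, Sox18 and Emcn to 1620 to 5409 bases. The part of endothelial cells in these differences was not tested.

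The count of hepatoblast markers depended on macrophage replicate 1. Of 28, 25 were tested and 5 (20%) were higher in HSC libraries, and 15 without macrophage replicate 1. By edgeR and by DESeq2 0 were higher in macrophage libraries, with 2 at an unadjusted p under 0.05. Alb, serum albumin, had 411, 493 and 174 CPM in HSC libraries against 2056, 100.4 and 86.3 CPM in macrophage libraries. Its log2 fold change was -1.06, adjusted p = 0.497 with macrophage replicate 1 and 1.94, adjusted p = 0.0135 without it. Afp, alpha-fetoprotein, had 592, 834 and 289.9 CPM in HSC libraries against 24.3, 128 and 136 CPM in macrophage libraries, with macrophage replicate 1 the lowest of all libraries (log2 fold change 2.57 ± 0.64 SE, adjusted p = 0.0167). Apoa2, an apolipoprotein of high-density lipoprotein, had 138, 211 and 107 CPM in HSC libraries against 43.2, 18.4 and 9.44 CPM in macrophage libraries (log2 fold change 2.69 ± 0.56 SE, adjusted p = 0.00928). Among 21 tested of 23 stellate and mesenchymal markers, 6 (28.6%) were higher in macrophage and 4 (19.0%) in HSC libraries, both 5 without macrophage replicate 1, and 4 of the 6 and 2 of the 4 were called again in each fit without 1 library. Lum, the matrix proteoglycan lumican, had 65.5, 161 and 142 CPM in HSC libraries against 8.79, 13.9 and 12.1 CPM in macrophage libraries (log2 fold change 3.40 ± 0.44 SE, adjusted p = 0.00112). Dcn, decorin, had 116, 255 and 227 CPM in HSC libraries against 26.99, 16.7 and 23.8 CPM in macrophage libraries (log2 fold change 3.15 ± 0.38 SE, adjusted p = 0.000861). Both were higher in every HSC library. Col1a1, collagen type I, had 7.49, 18.95 and 20.1 CPM in HSC libraries against 720.4, 40.4 and 84.5 CPM in macrophage libraries, with macrophage replicate 1 the highest (log2 fold change -4.18 ± 1.04 SE, adjusted p = 0.0172), and its call was lost without HSC replicate 1 (adjusted p = 0.0514). The part of hepatic and stromal cells in these values was not tested.

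Of 19 granule genes of neutrophils and their precursors, all tested, 9 (47.4%) were higher in HSC libraries, all as large differences, with a median of 3.92 over the list. In each fit without 1 library 8 of the 9 were called again, and 10 were called without macrophage replicate 1. None was higher in macrophage libraries by edgeR, by DESeq2 or at an unadjusted p under 0.05. Prtn3, proteinase 3, had 61.2, 81.9 and 100 CPM in HSC libraries against 1.12, 0.560 and 0 CPM in macrophage libraries (log2 fold change 7.22 ± 1.05 SE, adjusted p = 0.00192). Ngp, a granule protein gene, had 294, 325 and 659.5 CPM in HSC libraries against 0.0698, 3.76 and 14.03 CPM in macrophage libraries (log2 fold change 6.15 ± 1.21 SE, adjusted p = 0.00711). S100a9, a subunit of calprotectin, had 139, 231 and 219 CPM in HSC libraries against 5.79, 8.45 and 0.155 CPM in macrophage libraries (log2 fold change 5.36 ± 1.03 SE, adjusted p = 0.00651). Fcnb, ficolin B, had 37.6, 46.6 and 43.04 CPM in HSC libraries against 0.349, 0.967 and 0.980 CPM in macrophage libraries (log2 fold change 5.77 ± 0.66 SE, adjusted p = 0.000652). For each of these 4 genes the lowest HSC library was above the highest macrophage library by at least an order of magnitude. Mpo, myeloperoxidase, had 248, 144 and 41.5 CPM in HSC libraries against 0, 51.03 and 10.99 CPM in macrophage libraries. HSC replicate 3 fell below macrophage replicate 2 for Mpo, and the gene was not called (log2 fold change 2.80 ± 1.42 SE, adjusted p = 0.166). The part of granulocyte precursors in these differences was not tested.

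Erythroid genes (27 of 29 tested) had 9 members (33.3%) higher in HSC libraries and 3 (11.1%) in macrophage libraries, with a median of 1.18. Their median exon length was 2.42 kb, and after length correction the counts were 6 and 1, with a median of 1.15. Without macrophage replicate 1 the counts were 12 and 6, and 5 of the 9 and 1 of the 3 were called again in each fit without 1 library. Nfe2, a factor of erythroid and megakaryocytic cells, had 115, 243 and 302 CPM in HSC libraries against 0, 6.31 and 2.42 CPM in macrophage libraries (log2 fold change 6.22 ± 1.16 SE, adjusted p = 0.00568). Hbb-bs, an adult beta globin gene, had 259, 522 and 241 CPM in HSC libraries against 1.60, 12.5 and 4.38 CPM in macrophage libraries (log2 fold change 5.78 ± 0.77 SE, adjusted p = 0.00126). Its near-identical copy Hbb-bt had 183, 362 and 299 CPM in HSC libraries against 3.77, 19.03 and 30.5 CPM in macrophage libraries (log2 fold change 3.98 ± 0.69 SE, adjusted p = 0.00402), and reads of these genes may be split between them. Car2, carbonic anhydrase 2, had 608, 658 and 855 CPM in HSC libraries against 21.1, 14.4 and 37.2 CPM in macrophage libraries (log2 fold change 4.86 ± 0.41 SE, adjusted p = 0.000242). Among the 3 genes of the opposite direction, Sptb, the beta spectrin of the red cell membrane skeleton, had 5.03, 7.55 and 3.28 CPM in HSC libraries against 46.5, 89.3 and 77.3 CPM in macrophage libraries (log2 fold change -3.75 ± 0.50 SE, adjusted p = 0.00134). Ank1, ankyrin (-3.27, adjusted p = 0.0223), lost its call after length correction (-1.63, adjusted p = 0.197), and also without HSC replicate 1, HSC replicate 3 or macrophage replicate 2 (adjusted p = 0.0687, 0.0549 and 0.0702). Megakaryocyte genes (17 of 19 tested) had 1 member (5.88%) higher in HSC and 2 (11.8%) in macrophage libraries, below the 14.3% and 21.2% of all genes. Without macrophage replicate 1 the counts were 3 and 3. Itga2b, the integrin chain CD41, had 209, 130.2 and 74.6 CPM in HSC libraries against 149, 91.9 and 85.6 CPM in macrophage libraries and was not called (log2 fold change 0.34 ± 0.40 SE, adjusted p = 0.558). Of 21 lymphoid genes 15 were tested and 2 (13.3%) were higher in HSC libraries, near the 14.3% of all genes, and 1 without macrophage replicate 1. In each fit without 1 library 0 of the 2 were called again. Of 11 mast cell genes 3 were tested and 1 was higher in macrophage libraries.

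S phase genes were called higher in HSC libraries in 13 of 25 cases (52.0%), with a median of 0.93, and 1 (4%) was higher in macrophage libraries. In each fit without 1 library, 9 of the 13 were called again and the 1 of the other direction was not, and without macrophage replicate 1 the counts were 15 and 1. Chaf1b, a chromatin assembly factor, was the large difference of the list, with 119, 135 and 127 CPM in HSC libraries against 5.65, 29.2 and 18.7 CPM in macrophage libraries (log2 fold change 2.83 ± 0.55 SE, adjusted p = 0.00670). Mcm6, a subunit of the replicative helicase, had 568, 504 and 598 CPM in HSC libraries against 152, 200.1 and 215 CPM in macrophage libraries (log2 fold change 1.56 ± 0.23 SE, adjusted p = 0.00184). Of 27 genes of G2 and mitosis, 9 (33.3%) were higher in HSC and 5 (18.5%) in macrophage libraries, 6 and 1 after length correction, and 9 and 4 without macrophage replicate 1. Of these, 3 of the 9 and 1 of the 5 were called again in each fit without 1 library. Cdc20, an activator of the anaphase-promoting complex, had 332, 325 and 256 CPM in HSC libraries against 112, 33.02 and 39.9 CPM in macrophage libraries (log2 fold change 2.30 ± 0.47 SE, adjusted p = 0.00806). Mki67, which encodes the proliferation antigen Ki-67, had 219, 273 and 155 CPM in HSC libraries against 2276, 1341 and 1599 CPM in macrophage libraries. It was the gene still higher in macrophage libraries after length correction (-1.80, adjusted p = 0.00440, against -3.01 ± 0.31 SE, adjusted p = 0.000462 without it). Genes of both groups thus had calls in both directions, with the longer Mki67 (exons of 10061 bases) on the macrophage side. After length correction, 13 S phase genes were higher in HSC libraries and 0 in macrophage libraries, so that list then had calls in the HSC direction only.

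Of 20 cell cycle inhibitors and quiescence genes, 9 (45.0%) were higher in HSC and 2 (10%) in macrophage libraries, with a median of 0.90. In each fit without 1 library, 3 of the 9 and 1 of the 2 were called again, and without macrophage replicate 1 the counts stayed at 9 and 2. Cdkn1c, which encodes p57 and holds HSCs in quiescence, had 367, 374 and 309.6 CPM in HSC libraries against 68.2, 93.9 and 86.5 CPM in macrophage libraries (log2 fold change 2.08 ± 0.24 SE, adjusted p = 0.000651). Cdkn2d, an inhibitor of the INK4 family, had 75.98, 94.8 and 86.4 CPM in HSC libraries against 18.4, 11.9 and 3.15 CPM in macrophage libraries (log2 fold change 2.94 ± 0.61 SE, adjusted p = 0.00868). Ndn, necdin, a brake on HSC division, had 92.4, 98.1 and 83.4 CPM in HSC libraries against 38.2, 15.9 and 13.9 CPM in macrophage libraries (log2 fold change 2.01 ± 0.45 SE, adjusted p = 0.0118). These 3 genes did not overlap between the sorts, beside 25.5% of all genes without rank overlap on the HSC side. Foxo3, a transcription factor needed for HSC quiescence, was higher in macrophage libraries, with 8.11, 14.002 and 27.6 CPM in HSC libraries against 85.9, 114 and 106 CPM in macrophage libraries (log2 fold change -2.62 ± 0.48 SE, adjusted p = 0.00536). Of 21 Polycomb and DNA methylation genes, 3 (14.3%) were higher in HSC and 4 (19.0%) in macrophage libraries, near the shares over all genes. Dnmt3b, a de novo methyltransferase of embryonic cells, had 104, 182 and 291 CPM in HSC libraries against 52.4, 31.4 and 17.8 CPM in macrophage libraries (log2 fold change 2.51 ± 0.50 SE, adjusted p = 0.00749). Dnmt1, the maintenance methyltransferase, had 160.4, 155 and 165 CPM in HSC libraries against 639, 492 and 604 CPM in macrophage libraries and the opposite direction (log2 fold change -1.85 ± 0.21 SE, adjusted p = 0.000664).

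**Figure D4:**
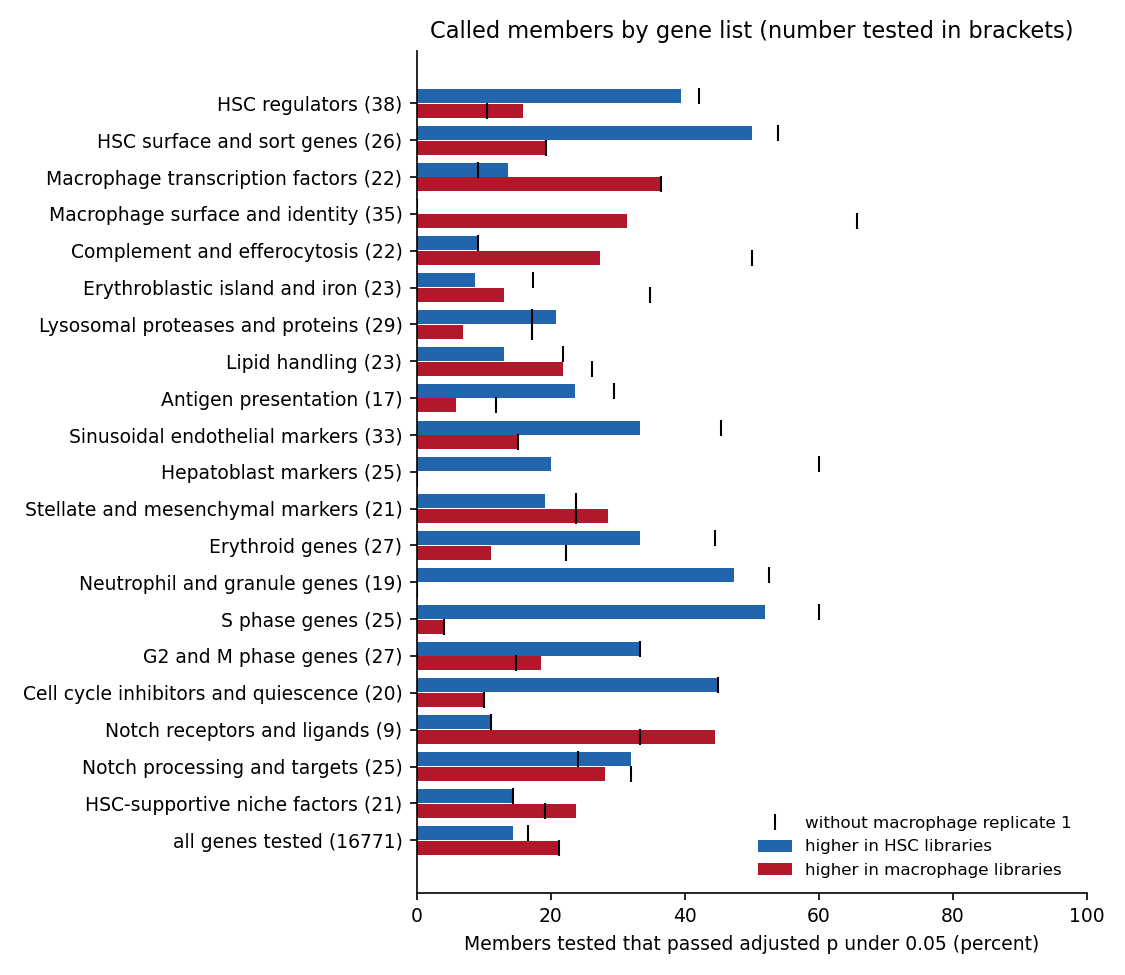
Percent of tested members of each gene list called higher in HSC libraries (blue bars) or in macrophage libraries (red bars), with the number tested in brackets and black ticks for the same percent without macrophage replicate 1. Over all genes the bars stand at 14.3% and 21.2%, S phase genes reach 52.0% and HSC surface genes 50% on the HSC side, and the tick for macrophage identity genes lies at 23 of 35.

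The Notch receptor genes Notch1, Notch2 and Notch4 and the ligand gene Jag1 were higher in macrophage libraries, while Notch3 was not called (-1.47, adjusted p = 0.495). Of 10 receptors and ligands 9 were tested, 4 (44.4%) were higher in macrophage libraries, each as a large difference beside 13.5% of all genes, and 1 (11.1%) in HSC libraries, with a median of -2.02. Notch1 had 40.9, 42.3 and 30.8 CPM in HSC libraries against 787, 351 and 458 CPM in macrophage libraries (log2 fold change -3.81 ± 0.36 SE, adjusted p = 0.000337). Notch2 had 2.97, 2.10 and 8.88 CPM in HSC libraries against 49.3, 95.9 and 119 CPM in macrophage libraries (log2 fold change -4.25 ± 0.68 SE, adjusted p = 0.00279). Notch4, a receptor typical of endothelium, had 29.9, 18.6 and 16.9 CPM in HSC libraries against 261, 123 and 75.2 CPM in macrophage libraries (log2 fold change -2.81 ± 0.50 SE, adjusted p = 0.00465). None of the 3 overlapped, beside 25.5% of all genes without rank overlap on the macrophage side. Macrophage replicate 1 was the highest library for Notch1 and Notch4 and the lowest of its group for Notch2. Exons of these genes sum to 8061 to 14232 bases, and the length-corrected values passed (-2.09, adjusted p = 0.00383 for Notch1, -2.93, adjusted p = 0.0131 for Notch2 and -1.92, adjusted p = 0.0204 for Notch4). Jag1, the ligand gene that the study targets with Vav-Cre and that was not targeted here, had 6.38, 6.71 and 1.13 CPM in HSC libraries against 63.3, 22.9 and 29.5 CPM in macrophage libraries. Every macrophage library was above every HSC library (log2 fold change -3.02 ± 0.80 SE, adjusted p = 0.0197), and the call was lost without macrophage replicate 1 (adjusted p = 0.0547). Dll4, a ligand of endothelium, had 224, 80.3 and 146 CPM in HSC libraries against 126, 112 and 115 CPM in macrophage libraries and was not called (log2 fold change 0.35 ± 0.36 SE, adjusted p = 0.498). Dlk1, a non-canonical ligand made by hepatoblasts, was higher in HSC libraries, with 187, 419 and 316 CPM in HSC libraries against 79.1, 70.2 and 102 CPM in macrophage libraries (log2 fold change 1.87 ± 0.33 SE, adjusted p = 0.00465).

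Of 25 genes that process Notch or respond to it, 8 (32.0%) were higher in HSC and 7 (28.0%) in macrophage libraries, with a median of -0.18. Without macrophage replicate 1 the counts were 6 and 8, and 5 of the 8 and 5 of the 7 were called again in each fit without 1 library. Mib1, the ligase that lets ligands signal, had 32.4, 24.2 and 15.4 CPM in HSC libraries against 274, 218 and 324 CPM in macrophage libraries (log2 fold change -3.50 ± 0.35 SE, adjusted p = 0.000418). Maml1, a co-activator of the cleaved receptor, had 6.86, 10.1 and 0.666 CPM in HSC libraries against 92.5, 48.4 and 68.2 CPM in macrophage libraries (log2 fold change -3.56 ± 0.87 SE, adjusted p = 0.0160). Dtx1, Deltex, had 0 reads in each HSC library and 4.05, 3.10 and 8.20 CPM in macrophage libraries, at least 109.7-fold higher. On the HSC side, Psenen, a subunit of the gamma-secretase that cleaves Notch, had 66.3, 56.4 and 57.1 CPM in HSC libraries against 9.49, 14.2 and 8.20 CPM in macrophage libraries (log2 fold change 2.49 ± 0.42 SE, adjusted p = 0.00330). Fringe enzymes, which tune the response to Jagged and Delta ligands, were divided. Rfng had 42.5, 63.04 and 63.4 CPM in HSC libraries against 1.88, 5.80 and 7.58 CPM in macrophage libraries (log2 fold change 3.46 ± 0.60 SE, adjusted p = 0.00420), and Mfng 192, 170.3 and 168 CPM in HSC libraries against 38.2, 13.7 and 21.9 CPM in macrophage libraries (log2 fold change 2.85 ± 0.40 SE, adjusted p = 0.00166). Lfng had 13.8, 17.4 and 12.9 CPM in HSC libraries against 54.7, 48.1 and 55.5 CPM in macrophage libraries, higher in macrophages (log2 fold change -1.84 ± 0.39 SE, adjusted p = 0.00901). Among niche factors that support HSCs (21 of 24 tested), 5 (23.8%) were higher in macrophage and 3 (14.3%) in HSC libraries. These were near the shares over all genes, 21.2% and 14.3%, and the counts were 4 and 3 without macrophage replicate 1. Igf2, a fetal growth factor, had 749.6, 633 and 642 CPM in HSC libraries against 91.5, 59.5 and 74.7 CPM in macrophage libraries (log2 fold change 3.16 ± 0.25 SE, adjusted p = 0.000187). Cxcl12, the chemokine that retains HSCs, had 68.6, 110.3 and 102 CPM in HSC libraries against 27.3, 28.1 and 6.91 CPM in macrophage libraries (log2 fold change 2.17 ± 0.54 SE, adjusted p = 0.0172), and its call was lost without HSC replicate 2 (adjusted p = 0.0517). Kitl, stem cell factor, had 75.7, 62.9 and 35.1 CPM in HSC libraries against 86.5, 57.1 and 50.7 CPM in macrophage libraries and was not called (log2 fold change -0.16 ± 0.39 SE, adjusted p = 0.789).

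Among genes that averaged 20 CPM or more in the higher sort and had a read in every library, 8 of the 12 macrophage-higher genes with the largest fold changes were replication-dependent histones, whose transcripts in dividing cells end without a poly(A) tail. Hist1h1d, a linker histone gene, had 2.90, 2.98 and 4.19 CPM in HSC libraries against 491, 462 and 701 CPM in macrophage libraries (log2 fold change -7.36 ± 0.35 SE, adjusted p = 5.32e-05). Hist1h2be, of histone H2B, had 2.63, 2.68 and 5.34 CPM in HSC libraries against 216, 646 and 777 CPM in macrophage libraries (log2 fold change -7.27 ± 0.62 SE, adjusted p = 0.000261). Of 65 clustered histone genes 51 were tested, 34 (66.7%) were higher in macrophage and 1 (1.96%) in HSC libraries, with a median of -5.43. Of 76 ribosomal protein genes, all tested, 47 (61.8%) were higher in macrophage and 4 (5.26%) in HSC libraries, with a median of -1.12. Both lists were drawn up after the values had been seen. The median exon length of the ribosomal protein genes, 1.81 kb, was below that of all genes (4.14 kb), so that they ran against the length gradient. Both families have near-identical copies, and their levels are uncertain where the counting split such reads.

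The other 4 macrophage-higher genes were Hspg2, Lmtk3, Mroh2a and Fhl3. Hspg2, which encodes the basement membrane proteoglycan perlecan, had 78.2, 47.8 and 36.6 CPM in HSC libraries against 5189, 2290.4 and 2621 CPM in macrophage libraries (log2 fold change -5.96 ± 0.48 SE, adjusted p = 0.000200). Fhl3, a LIM domain protein gene, had 0.711, 0.691 and 0.666 CPM in HSC libraries against 47.5, 42.5 and 54.9 CPM in macrophage libraries (log2 fold change -6.12 ± 0.54 SE, adjusted p = 0.000263). Among the 12 HSC-higher genes were Grcc10, Ifitm1, Tspan32, Tbc1d10c, Stfa1, Myl12b, Ngp, Nme2, Hbb-bs, Fcnb and Mycn. Stfa1, a stefin of myeloid cells, had 79.99, 141 and 81.2 CPM in HSC libraries against 0.209, 1.93 and 1.19 CPM in macrophage libraries (log2 fold change 6.48 ± 0.77 SE, adjusted p = 0.000763). Tspan32, a tetraspanin of blood cells, had 95.6, 218 and 254 CPM in HSC libraries against 0.558, 2.85 and 0.361 CPM in macrophage libraries (log2 fold change 7.21 ± 0.87 SE, adjusted p = 0.000847). Grcc10, Tspan32, Tbc1d10c, Myl12b and Nme2 overlap other annotated genes, and without strand their reads and those of the overlapping gene cannot be told apart. The limit is not confined to them. Another gene overlapped 55.8% of all genes tested, 53.0% of the large HSC-higher and 56.3% of the large macrophage-higher genes. Of the 38 HSC regulators, 24 had such an overlap.

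Some calls named above were lost under other settings of the fit, and those lost with the replicate number as a block stand in the closing section. Without a filter on low counts these were Col1a1, F13a1, Gfi1, Hoxb4, Klf4, Ly6a, Nfe2, Ngp, Nme2, S100a9 and Vpreb1. When the spread was estimated from all 12 libraries of the study, Ank1, Bhlhe41, C3ar1, Cd163, Cebpa, Cxcl12, Dnmt3b, Erg, F13a1, Glb1, H2-Aa, Hoxb4, Itga6, Jag1, Klf4, Lfng, Ly6a, Mllt3, Ndn, Npc1, Procr, Psenen, Rfng, Sptb, Tal1, Thy1, Vpreb1, Vwf and Zfp521 were no longer called. On ranks within the library the losses were Bhlhe41, Hoxb4 and Ms4a2. Cd163 was also lost on library totals and at equal depth, and Ly6a among protein-coding genes without overlap. Of the members named as higher in 1 sort, none changed sign under these settings.

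Promoter sequences were searched for 5 short motifs, letters known to be bound by families of transcription factors. Of these families, members of ETS and MAF are named above. Promoters of RefSeq (build GRCm38.p6, 250 bases before to 50 after each start) were matched by symbol for 12491 of the genes tested, for 812 of the 1050 large HSC-higher and for 1576 of the 2259 large macrophage-higher genes. AGGAAGT, the core bound by ETS factors and PU.1, was found on either strand in 9.0% of all 15926 promoters, in 8.43% of those of HSC-higher genes and in 7.45% of those of macrophage-higher genes. AGATAAG of GATA factors was found in 2.32%, 2.91% and 3.15%, and TGTGGT of RUNX factors in 13.5%, 14.8% and 12.8%. TGCTGA, only a part of the site of MAF factors, was found in 16.6%, 14.6% and 17.7%. TCACGTGA of TFEB and MITF was found in 1.60%, 1.55% and 1.10%. These shares are descriptions, and a match of letters is not a site. The AGGAAGT letters occur upstream of genes on both sides, as in Hoxa10 (higher in HSCs) and in Mrc1 and Itgav (higher in macrophages). The 250 bases before each start are printed from the 5′ end on the strand of the gene, with AGGAAGT, on either strand, and any other of the 5 motifs in capitals. The stretches are chr6:52240855-52241104 (minus strand), chr2:14229164-14229413 (plus strand) and chr2:83724147-83724396 (plus strand). Another Hoxa10 promoter, chr6:52234940-52235189 (minus strand), held TGCTGA but not AGGAAGT in these 250 bases and is not printed.
Hoxa10: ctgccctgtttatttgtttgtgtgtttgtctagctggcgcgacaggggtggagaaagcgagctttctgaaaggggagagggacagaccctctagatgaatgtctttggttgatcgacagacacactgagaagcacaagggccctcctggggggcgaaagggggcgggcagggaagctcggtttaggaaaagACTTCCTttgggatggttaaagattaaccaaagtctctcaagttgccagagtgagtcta
Mrc1: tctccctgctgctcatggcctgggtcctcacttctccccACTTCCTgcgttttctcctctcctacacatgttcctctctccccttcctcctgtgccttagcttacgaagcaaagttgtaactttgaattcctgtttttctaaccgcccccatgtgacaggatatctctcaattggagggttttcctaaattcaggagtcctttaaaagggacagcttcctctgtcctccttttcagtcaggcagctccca
Itgav: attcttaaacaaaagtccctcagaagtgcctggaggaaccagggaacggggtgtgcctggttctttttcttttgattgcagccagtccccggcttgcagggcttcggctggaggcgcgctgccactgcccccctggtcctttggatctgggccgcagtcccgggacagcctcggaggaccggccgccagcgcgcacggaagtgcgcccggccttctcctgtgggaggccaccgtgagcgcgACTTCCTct

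The same contrast was computed in the libraries with Vav-Cre, of which none enters the comparison above. They were the 3 HSC and 3 macrophage libraries from Jag1 f/f embryos that carried the transgene, in which the recombinase can delete Jag1 in blood cells, and the macrophage libraries held 2602934 to 5366990 reads. The sorts were counted into separate tables there too. Of 13328 genes tested, 650 (4.88%) were higher in HSC and 612 (4.59%) in macrophage libraries. The 1262 calls were 3234 by DESeq2 and became 458, 463 and 703 without Cre positive HSC replicates 1, 2 and 3 in turn. Among the 1050 large HSC-higher genes of the Cre negative libraries, 993 could be tested, 977 (98.4%) had the same sign and 321 (32.3%) were called in the same direction. Among the 2259 large macrophage-higher genes, 1318 could be tested, 1284 (97.4%) had the same sign and 413 (31.3%) were called. A same-sign share over all genes is not given beside these. Sort, preparation and counting cannot be told apart in these libraries either, so the shared signs do not set these genes apart from others. With log2 fold changes of the same direction, Hlf (5.78, adjusted p = 0.0268), Lrp1 (-4.84, adjusted p = 0.00735), Abca1 (-3.03, adjusted p = 0.00732), Mertk (-3.25, adjusted p = 0.0318), Cdh5 (-3.61, adjusted p = 0.00134) and Mki67 (-2.70, adjusted p = 0.00110) were called there, whereas Siglec1 (-4.45, adjusted p = 0.0919), Csf1r (-1.61, adjusted p = 0.281) and Cx3cr1 (-0.13, adjusted p = 0.956) were not. An interaction test over 12 libraries called 14 of 20128 genes (0.0696%) by edgeR, and 691 by DESeq2, as differing in the sort contrast between the genotypes.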

How the data were processed

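The authors deposited raw read counts per gene, 1 table for HSC libraries and 1 for macrophage libraries. Per the submitters' processing notes, the tools for HSC reads were STAR 2.7.6a and featureCounts of Subread 2.0.1, on GRCm38, and macrophage reads were mapped to mm10, with other steps not given in the sources used here. The tables list 32285 and 56980 Ensembl genes. The 32210 in both were kept, of which GENCODE M21 named 32162, and mitochondrial rRNA was dropped. The samples were grouped by their labels. Tests used edgeR 4.0.16 (quasi-likelihood, robust, TMM scaling, filterByExpr) on the 6 libraries in R 4.3.3, with Benjamini-Hochberg adjustment over all genes tested. The alternatives, among them DESeq2 1.42.0 and limma 3.58.1, are in the closing section. The scripts were tested on simulated data: of 50 genes changed per fold, 1 was recovered at a fold of 2, 6 at 4, 19 at 8 and 26 at 16, with 2 false calls among 16571 unchanged genes. In the comparison itself 5953 genes (35.5%) were called. The adjusted p depends on how many genes differ, so the simulated recovery does not give the sensitivity of the comparison.

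The members and gene lists were chosen with earlier results of these data known. Named were the gate genes, Jag1, Hlf, Mecom, Adgre1, Siglec1 and Stab2, up to 4 large differences per list and direction with a mean of at least 5 CPM, up to 2 abundant members not called, and over all genes up to 12 per direction with at least 20 CPM and a read in every library, with up to 6 of the highest rank in all libraries. Outside that rule, Cd34, Cd47, Cd93, Csf1r, Dlk1, Dnmt1, Erg, Hhex, Itga6, Lfng, Lmo2, Maf, Mcm6, Mllt3, Mrc1, Ms4a2, Myb, Notch3, Plvap, Procr, Rxra, Siglech, Sox4, Vpreb1 and Vwf were named after their values were seen. Some genes of these lists are not reported here. Promoters came from RefSeq. Coordinates are of GRCm38.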

Additional observations from a re-analysis of the deposited data

Results flagged for a closer look

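The sort difference of 2 named genes differed between the genotypes by the interaction test in edgeR over 12 libraries, coded as HSC minus macrophage in Cre negative libraries minus the same in Cre positive libraries. The interaction was -11.18 on the log2 scale for Epor and -10.98 for Mycn. Cre positive macrophage replicates 1 to 3, with 2602934 to 5366990 reads each, held 0 reads of each gene, so these fitted values depend on the prior count and are not bounds. Cre negative macrophage replicates 1 to 3 held 56, 136 and 293 reads of Epor and 54, 133 and 198 reads of Mycn. In all, 14 genes passed this test, each with a negative value, and 8 of the 14 had 0 reads in all 3 Cre positive macrophage libraries.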

How the results depend on the processing

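Of the genes named, 122 were called, of which 75 kept their call in every alternative that could test them, 47 lost it in at least 1, and 1 changed sign in 1, Vwf to 0.72 after length correction. Of 22 not called, 13 passed in at least 1 alternative and 9 changed sign in at least 1. Those were Alb (0.20 on ranks, 0.46 with the replicate block), C1qb (0.14 on ranks, 0.015 with the block), Cd5l (0.0096 on ranks), Lyz2 (-0.049 length-corrected), Kitl (0.27 length-corrected) and Ptprc (-0.020 by DESeq2, -0.012 with upper-quartile scaling, -0.11 with at least 10 CPM in 3 libraries). Over the fits that left out 1 library, log2 fold changes ran from -1.59 to 1.94 for Alb, from -0.13 to 1.19 for Cd48, from -0.15 to 0.65 for Dll4, from -0.16 to 0.64 for Itga2b, from -0.47 to 0.10 for Kitl, from -0.064 to 0.88 for Lyz2 and from -0.56 to 0.68 for Ptprc.

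The 2397 HSC-higher and 3556 macrophage-higher calls became 965 and 2252 with all 12 libraries in the fit and 736 and 1609 among protein-coding genes that overlap no other gene, where fewer genes were tested. The 1050 and 2259 large differences became 682 and 1319 with at least 10 CPM in 3 libraries and 282 and 949 among protein-coding genes without overlap. With all 12 libraries 543 HSC-higher differences were large, and with reads in all 6 libraries, a setting added after the data were seen as was the length correction, 1337 macrophage-higher ones. Replicate numbers are shared by the sorts, but the correlations of same-numbered libraries were 0.10, -0.063 and 0.080, so the numbers were not taken to pair them. With the replicate number as a block, 2137 genes were macrophage-higher, 1362 of them large, and Afp, Ank1, Cd163, Col1a1, Csf1r, Dtx1, Erg, H2-Aa, Hoxa10, Hoxb4, Klf4, Lgmn, Ly6a, Ms4a2, Ngp, S100a9, Siglec1, Siglech and Vpreb1 were no longer called. Leaving out 1 library gave 1319 to 2792 HSC-higher and 2368 to 3568 macrophage-higher calls, of which 679 to 1228 and 1820 to 2315 were large. In the Cre positive libraries, 1262 calls became 3234 by DESeq2 and 458 to 1323 without 1 library, and the 14 interaction calls became 691 by DESeq2. The alternative that keeps mitochondrial rRNA was not run, since the HSC table does not hold those genes. Sort, preparation and counting cannot be told apart, the macrophage libraries are shallower, and both limit what any of these differences can be ascribed to. Folds of 8 and below were mostly missed in simulated data, in which far fewer genes differed than were called here, so that this does not give the sensitivity of the comparison.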

Other observations

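Xist, the RNA of the inactive X chromosome, had 38.4, 0 and 46.1 CPM in HSC libraries against 4.74, 974 and 995 CPM in macrophage libraries, with 0 in HSC replicate 2 and the lowest macrophage value in replicate 1, the 2 libraries with reads on the Y-linked gene Ddx3y. It was not called (log2 fold change -4.55 ± 2.06 SE, adjusted p = 0.124). Among the genes with the highest ranks in all 6 libraries were Hsp90ab1 and the nuclear RNA Malat1. Hsp90ab1, a chaperone gene, had 1839.9, 1571 and 1693 CPM in HSC libraries against 3485, 4123 and 3828 CPM in macrophage libraries (log2 fold change -1.16 ± 0.20 SE, adjusted p = 0.00334). Malat1 had 3294, 5696 and 4496 CPM in HSC libraries against 10188, 6140.3 and 6371 CPM in macrophage libraries and was not called (log2 fold change -0.75 ± 0.29 SE, adjusted p = 0.0761). Vpreb1, a surrogate light chain of B cell precursors, had 4.43, 4.02 and 3.65 CPM in HSC libraries against 0.0698, 0.153 and 0.0516 CPM in macrophage libraries (log2 fold change 5.41 ± 1.70 SE, adjusted p = 0.0358), with its call lost without HSC replicate 1, HSC replicate 2, HSC replicate 3, macrophage replicate 1, macrophage replicate 2 or macrophage replicate 3 (adjusted p = 0.0703, 0.0654, 0.0531, 0.0770, 0.0915 and 0.108). Siglech, a gene of plasmacytoid dendritic cells, had 0 reads in each HSC library and 4.95, 4.38 and 3.30 CPM in macrophage libraries, at least 90.2-fold higher. Ms4a2, of the IgE receptor of mast cells, had 0 reads in each HSC library and 4.81, 1.22 and 4.38 CPM in macrophage libraries, at least 74.4-fold higher.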
